A study of Mus musculus with 4 samples.

Results

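The insulin-like growth factor (IGF) genes measured here were 8 listed by name, the ligands Igf1 and Igf2, the receptor Igf1r and the binding proteins Igfbp2, Igfbp3, Igfbp4, Igfbp5 and Igfbp7. All 8 were found among the 19040 genes present in the count tables of both brain regions. Cells had been dissociated from frontal cortex and midbrain of mice aged 6 to 9 months and counted by droplet RNA sequencing with a 3′ chemistry. The transgenic mice carried the strain name Hua-Syn(A53T), a human alpha-synuclein transgene by that name, and the wildtype mice were C57BL/6 littermates. The promoter of the transgene is not given in the sources used here, and no treatment is named for either genotype. The design gives 3 mice per group, although the label for mouse number reads 3 in frontal cortex and 0 in midbrain, and no cell names its mouse.

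Each of the 4 combinations of region and genotype was therefore 1 library. A difference between genotypes compares a pair of libraries, and no test or p-value is given. Whether the regions came from the same mice cannot be read from the cells, so a shared direction in both is not replication. Levels are a gene's UMIs (unique molecular identifiers, 1 per captured RNA molecule) scaled to all UMIs of the cells in a group, in the usual unit CPM. Their 95% intervals, and those of log2 ratios, cover counting error only. A gene was compared where it reached 20 CPM in at least 1 library and 20 UMIs over both, and was called higher or lower past 1.5 times, which is 0.58 on the log2 scale. The libraries held 3775 to 7635 cells and 30712684 to 56588233 UMIs, with medians of 6900 to 8193 UMIs per cell, and any pair of libraries shared 3 to 15 cell barcodes.

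IGF1 and IGF2 are secreted peptides that activate the receptor tyrosine kinase encoded by Igf1r, which signals through insulin receptor substrates, PI3K and AKT. The binding proteins hold the ligands outside the cell, prolong their half-life or keep them from the receptor, and some also act on cells without a ligand. Igfbp7 binds IGFs weakly and is best known as a matrix protein of blood vessels. In brain, these genes are made by different cells of the vessel wall, the meninges, the choroid plexus and the glia, so the cell type in which each is read matters.

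The genes lie on 5 chromosomes of GRCm38 in the GENCODE annotation, and the tables count whole genes without resolving exons or UTRs. Igf1 spans chr10:87858265-87937042 (plus strand), Igf2 chr7:142650766-142666816 (minus), Igf1r chr7:67952827-68233668 (plus), Igfbp3 chr11:7206086-7213923 (minus), Igfbp4 chr11:99041244-99054392 (plus) and Igfbp7 chr5:77349240-77408041 (minus). Igfbp2 at chr1:72824503-72852474 (plus) and Igfbp5 at chr1:72857932-72874884 (minus) face each other tail to tail with 5457 bases and no annotated gene between them. Igf2 overlaps Gm49394 and Mir483 on its own strand and Igf2os on the other, Igf1 overlaps Igf1os, and Igfbp7 overlaps Polr2b and Gm34648 on the opposite strand. Reads of these overlapping genes could not be told apart here, since the strand setting of the counting is not given in the sources used here.

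RefSeq promoters (GRCm38.p6, 250 bases before to 50 after an annotated start) were matched for 8 of 8 genes, 12 starts in all. The windows of 3 genes are shown because the results turn on them: Igfbp7, which differed between genotypes in endothelium, Igf1r, which marked endothelium, and the first start of Igfbp2, which differed in astrocytes. Capitals mark exact matches on either strand to GGGCGG (the GC box) or, in Igfbp2, to CACGTG (an E-box that reads the same on both strands).
Igfbp7, chr5:77407996-77408295, minus strand: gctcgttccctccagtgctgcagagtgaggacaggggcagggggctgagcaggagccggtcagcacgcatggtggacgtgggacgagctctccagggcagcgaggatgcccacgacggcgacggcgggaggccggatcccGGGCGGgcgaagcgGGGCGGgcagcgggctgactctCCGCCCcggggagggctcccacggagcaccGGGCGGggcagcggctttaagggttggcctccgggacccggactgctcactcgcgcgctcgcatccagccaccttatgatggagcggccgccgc
Igf1r, chr7:67952007-67952306, plus strand: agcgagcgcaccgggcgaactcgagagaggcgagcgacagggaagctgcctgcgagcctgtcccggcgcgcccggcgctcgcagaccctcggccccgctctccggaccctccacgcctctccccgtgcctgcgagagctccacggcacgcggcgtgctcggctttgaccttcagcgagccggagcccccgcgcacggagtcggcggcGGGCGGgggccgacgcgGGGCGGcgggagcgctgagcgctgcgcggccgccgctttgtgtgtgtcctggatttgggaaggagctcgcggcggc
Igfbp2, chr1:72824230-72824529, plus strand: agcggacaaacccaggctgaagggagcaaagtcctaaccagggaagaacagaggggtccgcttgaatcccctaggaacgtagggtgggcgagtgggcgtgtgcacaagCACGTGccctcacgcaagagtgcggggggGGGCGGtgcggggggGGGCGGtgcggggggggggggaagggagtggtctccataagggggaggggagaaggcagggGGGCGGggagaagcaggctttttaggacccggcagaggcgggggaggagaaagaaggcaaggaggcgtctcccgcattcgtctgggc
These windows hold 4, 2 and 3 GC boxes, and 35.7% of the 32851 promoters in the table hold at least 1. CACGTG occurred once in the Igfbp2 window and in 7.15% of all promoters. TATAAA and CCGGAAGT were searched for as well, on both strands, and were found in none of the 3 windows and in 13.6% and 3.89% of all promoters. No match overlapped another in these windows. The Igf1r window holds 48 CpG dinucleotides, more than 98.8% of promoters in the table, against 33 for Igfbp7 and 18 for Igfbp2 and a median of 7. Its RefSeq start lies upstream of the GENCODE gene start given above. The matches are letters in these windows and say nothing of a factor binding there.

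The deposited cell labels were checked against marker lists. The labels AC, MG, MAC, EC, PC and SMC matched astrocytes (10 of 11 markers highest in frontal cortex and 9 of 11 in midbrain), microglia (10 of 10), border macrophages (8 of 8), endothelium (10 of 10), pericytes (8 of 8) and vascular smooth muscle (8 of 8). Other labels went against their names, and their cells are called here by label and markers. The frontal cortex CPC label had 5 of 5 olfactory ensheathing markers highest, whereas the midbrain CPC label had 8 of 8 choroid plexus markers. The OPC label had 7 of 8 fibroblast markers highest in frontal cortex, with 6 of 8 oligodendrocyte progenitor markers, and 8 of 8 fibroblast markers in midbrain. The OLG label had 5 of 5 arachnoid barrier markers highest in both regions, and the midbrain imNeur label had 8 of 8 oligodendrocyte progenitor markers. These labels compare different cells between the regions, so no regional comparison is made in CPC, OPC or imNeur.

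**Figure D1:**
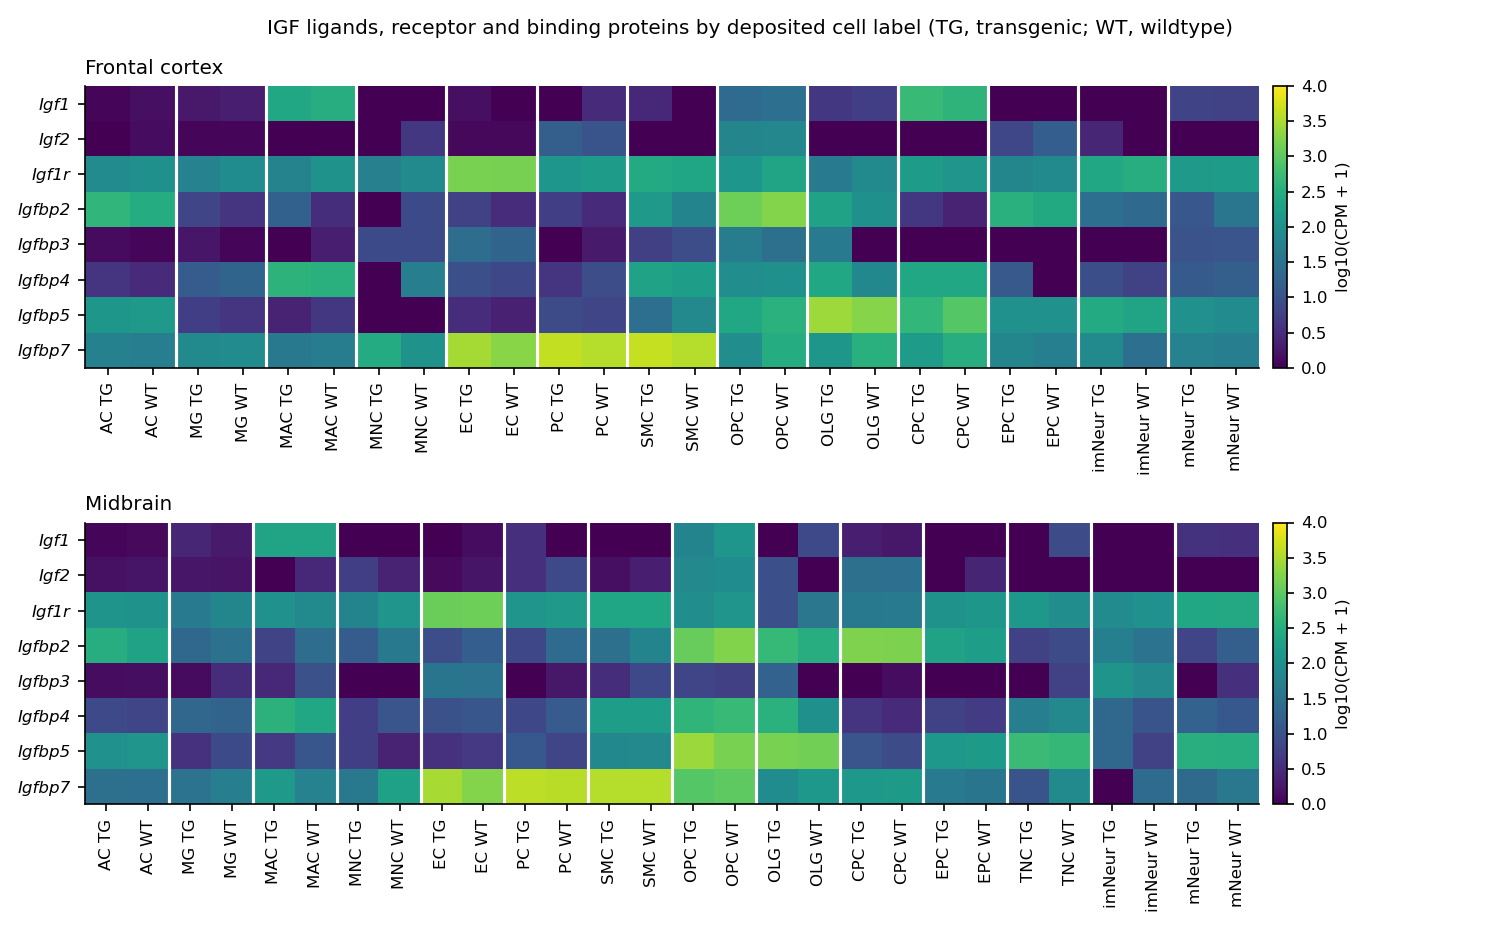
Level of each IGF gene (rows, log10 of CPM + 1) in each deposited cell label and library (columns, TG transgenic and WT wildtype) of frontal cortex and midbrain. Hb_EC is not drawn. Rows are to be read along a gene, not between genes: Igf1r is brightest in EC (1285 to 1562 CPM), Igfbp7 in EC, PC and SMC, and Igf1 in MAC and the frontal cortex CPC label.

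Igf1, the ligand made in liver for the circulation and locally in many tissues, was read in few cells. In macrophages it reached 249 CPM in transgenic and 310.4 CPM in wildtype frontal cortex, and 212 and 217 CPM in midbrain. The genotype ratios were -0.32 (-0.61 to -0.03) in frontal cortex, where the interval left out 0, and -0.03 (-0.36 to 0.29) in midbrain. Neither was past 1.5 times. After every cell was thinned to 3000 UMIs, 50% and 48.4% of frontal cortex macrophages and 33.3% and 44.4% of midbrain macrophages held an Igf1 UMI. Macrophages were 70 to 157 cells per library and carried 46.2% to 73.7% of all Igf1 UMIs.

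Microglia, the other brain macrophages, held next to no Igf1. Their levels were 0.86 and 1.2 CPM in transgenic and wildtype frontal cortex and 1.7 and 0.91 CPM in midbrain, from 7 to 17 UMIs in 806 to 1912 cells. Astrocytes read 0.14 to 0.47 CPM, from 1 to 4 UMIs per library. For every 1000 border macrophage marker UMIs, microglia held 4.09 to 10.3 Igf1 UMIs and macrophages 22.9 to 33.1. Outside the myeloid cells, the frontal cortex cells labelled CPC, with olfactory ensheathing markers, read 490.3 and 397 CPM in only 27 and 73 cells, above macrophages of the same region in both genotypes. Midbrain cells labelled OPC, with fibroblast markers, read 63.5 and 124 CPM. The 22 transgenic UMIs came from 21.6% of 37 cells, and 83 of 104 wildtype UMIs from 10 cells.

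Igf2, the fetal growth ligand that stays on in adult meninges and choroid plexus, was sparse, with 35 to 281 UMIs per library in all. The OPC label read 64.7 and 71.3 CPM in transgenic and wildtype frontal cortex and 75 and 86.1 CPM in midbrain, where 8 of 8 fibroblast markers were highest. Midbrain choroid plexus cells (label CPC) read 28.7 and 27.6 CPM, with a ratio of 0.06 (-0.36 to 0.47). Every other midbrain label gave at most 11 UMIs per library, among them pericytes at 2.5 and 6.6 CPM. In frontal cortex pericytes read 15.2 and 9.7 CPM from 10 UMIs in each library, which overlapped the range of the EPC label. In astrocytes Igf2 gave 0 to 11 UMIs per library and did not reach 1 CPM.

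Igf1r, the receptor through which both ligands signal, was highest in endothelium in both regions. Endothelial cells read 1562 and 1531 CPM in transgenic and wildtype frontal cortex and 1285 and 1311 CPM in midbrain. A UMI was seen in 92.1% to 95.1% of endothelial cells after thinning, and these cells carried 77.0% to 89.6% of all Igf1r UMIs. The next label in frontal cortex was imNeur, with immature neuron markers, at 248 and 311 CPM, which overlapped smooth muscle at 274 and 230.2 CPM. In midbrain the label Hb_EC, 14 cells in each library, lay second at 619.8 and 344 CPM. Genotypes did not separate in endothelium, where the ratios were 0.03 (-0.00 to 0.06) and -0.03 (-0.06 to 0.01). Midbrain endothelium was slightly below frontal cortex, with log2 ratios of -0.22 in wildtype and -0.28 in transgenic libraries, not past 1.5 times.

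Endothelial clusters differed in Igf1r more than genotypes did, although the clusters were built on these genes and this is a description only. Frontal cortex clusters 0 and 6 read 1602 to 1800.0 CPM, while cluster 5, which held the arterial markers (1367 CPM summed, against 152 CPM in cluster 0), read 1060.0 and 1066 CPM and cluster 14 read 1087 and 1217 CPM. In midbrain the arterial-marker cluster 9 read 771 and 674 CPM and cluster 14 read 862 and 763 CPM, below 1319 to 1520.0 CPM in clusters 0 and 6. The arterial-marker clusters, lowest or near the lowest in Igf1r, had the highest Igfbp3 and Igfbp7 levels of their region in both genotypes.

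In astrocytes Igf1r read 82.7 and 101 CPM in frontal cortex and 115 and 109 CPM in midbrain, transgenic first, with ratios of -0.29 (-0.44 to -0.13) and 0.08 (-0.02 to 0.19). The frontal cortex ratio kept its direction in 7 of 11 alternatives and ranged from -0.30 to 0.38, so no direction is read from it. In frontal cortex microglia it read 57.4 CPM in the transgenic and 88.4 CPM in the wildtype library (-0.62, -0.76 to -0.48), and in midbrain microglia 44.1 and 68.0 CPM (-0.62, -0.84 to -0.41). It was called lower in both regions. After thinning, 13.3% of transgenic and 15% of wildtype frontal cortex microglia held a UMI, and 12.3% and 14.9% of midbrain ones. The 10 richest cells held 128 of 603 transgenic and 190 of 1257 wildtype UMIs in frontal cortex. In midbrain they held 51 of 286 and 94 of 521. Endothelial markers moved with Igf1r. Their sum over 10 markers in microglia was 530.1 and 902 CPM in the frontal cortex libraries and 177 and 421 CPM in the midbrain ones, and their part in the result was not tested. For every 1000 endothelial marker UMIs, microglia held 108 and 97.9 Igf1r UMIs in frontal cortex and 249 and 162 in midbrain, above the 54.0 to 64.2 of endothelial cells. Of the genes compared in microglia, 2.24% in frontal cortex and 3.42% in midbrain were called in either direction, against 1 of 2 members compared in frontal cortex (Igf1r) and 2 of 3 in midbrain (Igf1r and Igfbp7).

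Igfbp2, a major binding protein of cerebrospinal fluid and astrocytes, had the largest genotype ratio of the 4 members compared in astrocytes. Frontal cortex astrocytes read 430.0 CPM in the transgenic and 302 CPM in the wildtype library, and midbrain astrocytes 308 and 204 CPM. The Poisson intervals of both genotypes did not overlap in either region, and the transgenic library was higher in both. The ratios were 0.51 (0.43 to 0.58) in frontal cortex, just under 1.5 times, and 0.59 (0.52 to 0.66) in midbrain, just over it. Thus 0 of 4 members compared were called in frontal cortex astrocytes, where 6.56% of 7120 genes were called, and 1 of 4 in midbrain, where 1.4% of 7075 genes were. The midbrain ratio fell short of 1.5 times without the single cell richest in Igfbp2 in each library (0.58) and as a mean of per-cell CPM, with cells thinned or with clusters weighted alike (0.44 to 0.55). After thinning, 47.9% of transgenic and 38.9% of wildtype frontal cortex astrocytes held an Igfbp2 UMI, and 34.4% and 28.3% of midbrain ones. In endothelial cells, a type low in the gene, the shares were 1.28% and 0.70% for the frontal cortex libraries and 2.35% and 3.94% for the midbrain ones. The 11 astrocyte markers in astrocytes moved the same way in frontal cortex, at 27086 and 21485 CPM, and less in midbrain, at 19202 and 18629 CPM, and their part in the result was not tested. For every 1000 of their UMIs, astrocytes held 15.9 and 14.1 Igfbp2 UMIs in frontal cortex and 16 and 11 in midbrain.

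**Figure D2:**
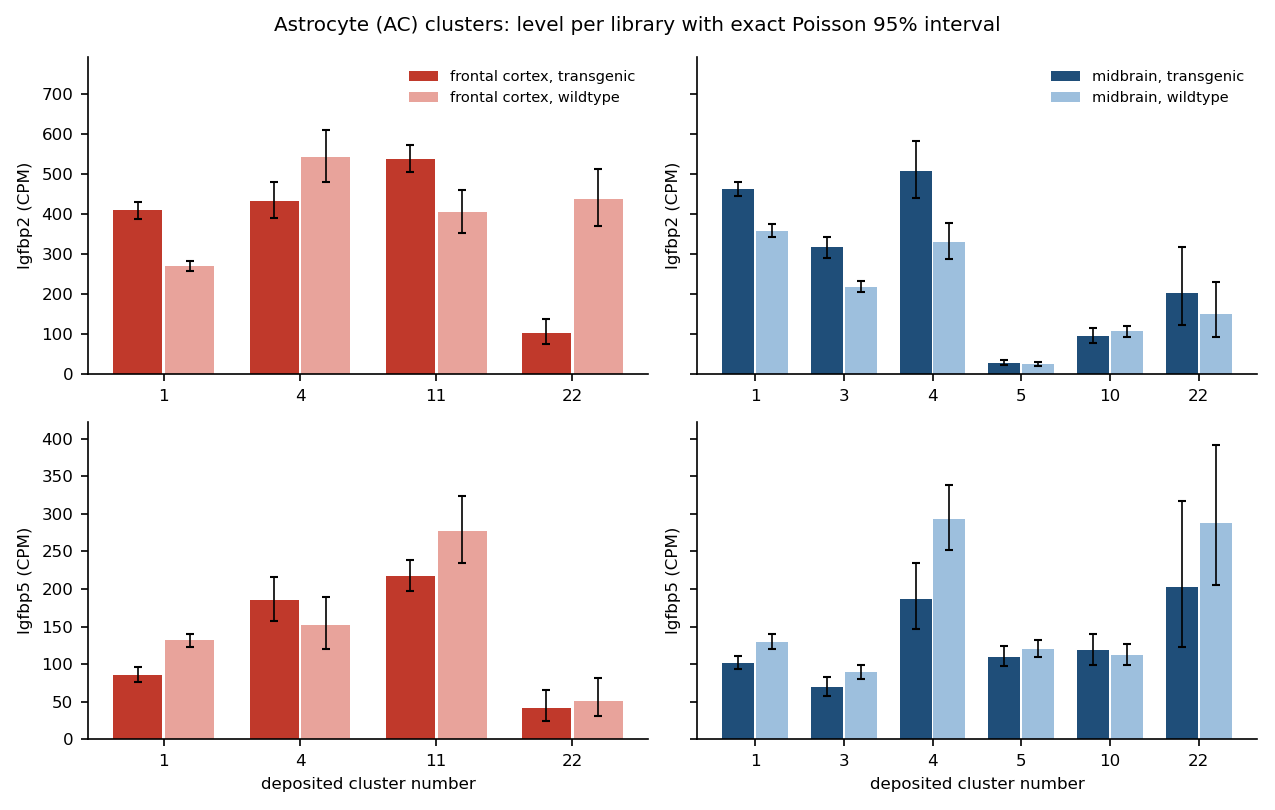
Igfbp2 and Igfbp5 in the deposited astrocyte clusters (CPM per library, bars; whiskers are exact Poisson 95% intervals). Transgenic Igfbp2 bars are above wildtype in frontal cortex clusters 1 and 11 and below in clusters 4 and 22, and midbrain cluster 5 sits at 25.2 to 29.0 CPM while the other clusters lie at 94.6 to 507 CPM.

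Within frontal cortex, the genotype direction of the summed Igfbp2 level depended on the cluster. Cluster 1, with 390 and 781 cells, read 409 and 270.1 CPM, a ratio of 0.60 (0.50 to 0.70). Cluster 11 read 538 and 404 CPM (0.41). Cluster 4 went the other way with 434 and 543 CPM (-0.32), although a larger share of its transgenic cells held a UMI. The shares were 49.5% and 47.3%, and 55.6% of 99 and 29.7% of 37 cells after thinning. Cluster 22 also went the other way, with 103 and 438 CPM (-2.08, -2.61 to -1.59) from 53 and 47 cells. There 10 cells held 38 of 43 transgenic and 140 of 154 wildtype UMIs, so few cells set each level. With the 4 clusters weighted alike, so that cluster 22 counted as much as cluster 1, the frontal cortex ratio was -0.16. Cluster 1 made up 44.9% of transgenic and 73.2% of wildtype astrocytes there, and cluster 4, with medians of 2287 and 1819 UMIs per cell, 35.6% and 19.2%. The median mitochondrial share of frontal cortex astrocytes was 9.68% in the transgenic and 5.27% in the wildtype library, and among cells under 10% the ratio was 0.65.

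In midbrain, 5 of 6 clusters had more Igfbp2 in the transgenic library. Among them the counting interval included 0 in cluster 5 (0.20, -0.25 to 0.65) and cluster 22 (0.43, -0.55 to 1.39). Cluster 1 read 462 and 358 CPM (0.37), cluster 3 317 and 218 CPM (0.54) and cluster 4 507 and 330.2 CPM (0.62). Cluster 5 was almost without the gene, at 29.0 and 25.2 CPM, and cluster 10 read 94.6 and 107 CPM (-0.17, -0.52 to 0.16). Igfbp5, the neighbour on chromosome 1, was as high in cluster 5 (109.8 and 121 CPM) as in cluster 1 (102 and 129.5 CPM).

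Choroid plexus cells and astrocytes carried most Igfbp2 of midbrain. Cells labelled CPC read 1705 and 1610.0 CPM, transgenic first, with a ratio of 0.08 (0.03 to 0.13). They carried 49.3% and 61.6% of all midbrain Igfbp2 UMIs, and astrocytes 40.8% and 21.5%. Choroid plexus markers were also found in other midbrain cells, at 2003 CPM in transgenic and 3579 CPM in wildtype astrocytes, against 26.1 and 16.8 CPM in frontal cortex astrocytes. For every 1000 choroid plexus marker UMIs, the CPC label held 5.84 and 5.71 Igfbp2 UMIs. Endothelial cells held 5.18 and 5.36, macrophages 3.22 and 4.78, pericytes 3.03 and 5.45 and microglia 8.05 and 6.51, all near the ratio of the CPC label. Astrocytes held 154 and 57.1 and smooth muscle 23.0 and 32.2, all above it. The transgenic values rest on 3 Igfbp2 UMIs in macrophages and 5 in pericytes, and 1 transgenic microglial cell held 51 of 134.

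**Figure D3:**
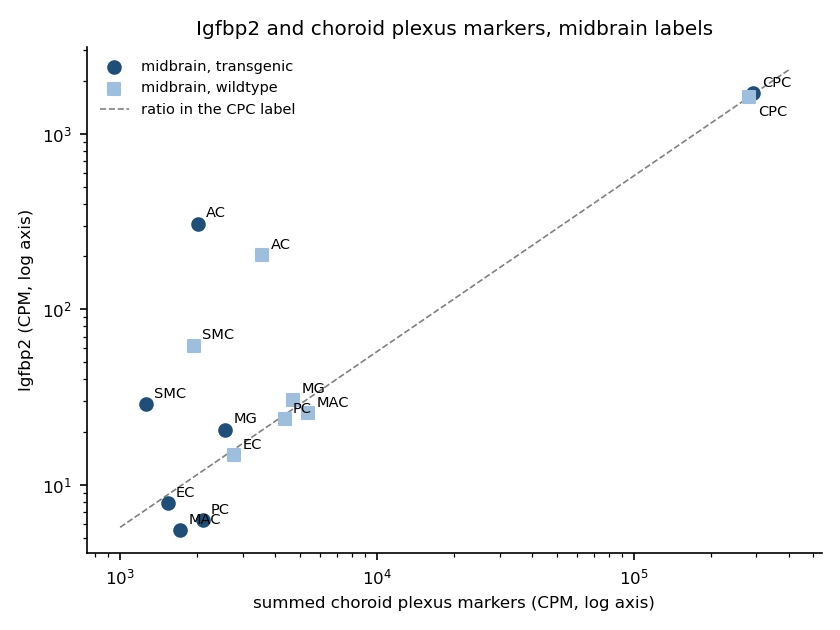
Igfbp2 against the summed choroid plexus markers (both CPM, log axes) in 7 midbrain labels of the transgenic (circles) and wildtype (squares) library; the dashed line is the ratio in the CPC label. MG, MAC, PC and EC sit near the line, at 3.03 to 8.05 Igfbp2 UMIs per 1000 marker UMIs, and AC and SMC above it.

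The midbrain values of Igfbp2 in labels near that ratio moved with the choroid plexus markers. Macrophages read 5.5 and 25.7 CPM (-2.22) while their choroid plexus markers were 1716 and 5381 CPM, and pericytes read 6.4 and 23.8 CPM (-1.91) with 2097 and 4369 CPM of markers. These levels rest on 3 and 29 UMIs in macrophages, where 1 wildtype cell held 15, and on 5 and 29 UMIs in pericytes. Microglia read 20.7 and 30.7 CPM (-0.57) with 2568 and 4711 CPM. Of the 134 transgenic microglial UMIs 1 cell held 51, so 1 cell weighs on that level and its ratio. In each of the 3 labels both values were lower in the transgenic library, while in astrocytes the markers were lower and Igfbp2 higher. In frontal cortex, where choroid plexus markers in microglia stood at 19.9 and 14.7 CPM, microglial Igfbp2 was 5.81 and 3.09 CPM. The part of this RNA in the midbrain values was not tested.

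The highest Igfbp2 of frontal cortex was in the OPC label, with fibroblast and progenitor markers, at 1325 and 1818 CPM, and midbrain cells of that label read 1174 and 1732 CPM. Wildtype was the higher library in both regions, in 35 to 93 cells per library, too few in the transgenic libraries for the comparison to be made. Smooth muscle cells split by region: Igfbp2 read 139 and 62.4 CPM in frontal cortex (1.15, 0.84 to 1.47) and 29.0 and 62.2 CPM in midbrain (-1.10, -1.52 to -0.69). The wildtype libraries of both regions matched, and the transgenic ones lay on either side. In these libraries 113 of 145, 156 of 207, 50 of 62 and 187 of 259 UMIs came from 10 cells, so few cells set each level. The astrocyte markers in smooth muscle moved the same way, at 429 and 168 CPM in frontal cortex and 125 and 388 CPM in midbrain, and their part in the result was not tested. For every 1000 astrocyte marker UMIs smooth muscle held 161 to 370.3 Igfbp2 UMIs, and astrocytes 11 to 16.

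Igfbp3, the main carrier of circulating IGFs, had most of its UMIs in endothelium. Endothelial cells read 26.0 and 18.6 CPM in frontal cortex (0.48, 0.24 to 0.72) and 34.7 and 31.9 CPM in midbrain (0.12, -0.11 to 0.35), and carried 79.7% to 90.1% of its UMIs. Only 2.88% to 4.72% of endothelial cells held a UMI after thinning. The level was higher in the frontal cortex OPC label, at 47.7 CPM in the transgenic and 29.4 CPM in the wildtype library, from 14 and 21 UMIs. In frontal cortex it sat in the arterial-marker cluster 5, at 96.2 and 65.0 CPM, against 6.31 and 2.53 CPM in cluster 0 and fewer than 5 UMIs per library in clusters 6 and 14. In midbrain the arterial-marker cluster 9 read 91.9 and 60.8 CPM, and cluster 0, low in arterial markers (107 CPM summed, against 1781 CPM in cluster 9), read 38.1 and 41.8 CPM. Only 2.0% and 1.8% of these cluster 0 cells held a UMI. Of their UMIs 1 transgenic cell held 57 of 113, and 10 wildtype cells held 306 of 327. Between regions, wildtype endothelium was higher in midbrain by 0.78 (0.58 to 0.97), 1 of 3 members compared, where 0.791% of 6704 genes were called. In transgenic endothelium it was higher by 0.42 (0.15 to 0.69), not past 1.5 times, and 1.45% of genes were called. In wildtype midbrain endothelium 306 of 470 UMIs came from 10 cells, against 99 of 395 in wildtype frontal cortex endothelium. Few cells thus weigh heavily on the wildtype regional ratio. The midbrain imNeur label, with oligodendrocyte progenitor markers, read 116 and 75.1 CPM in 13 and 71 cells.

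Igfbp4, a secreted inhibitor of IGF action that is cleaved by pappalysins, was highest in macrophages of frontal cortex, at 389 and 348 CPM (0.16, -0.09 to 0.40). Midbrain macrophages read 365.0 and 254 CPM (0.52, 0.26 to 0.79), below the OPC label of that region and overlapping the range of the OLG label (354 and 101 CPM). Smooth muscle read 203 and 169 CPM in frontal cortex and 176 and 168 CPM in midbrain, with ratios of 0.26 and 0.07. Microglia read 13.7 to 19.6 CPM in all 4 libraries, below the 20 CPM needed for a comparison, and 3.59% to 5.94% of them held a UMI after thinning. The midbrain OPC label, with fibroblast markers, read 418 and 504 CPM. Frontal cortex cells labelled CPC, with olfactory ensheathing markers, read 239.8 and 248.2 CPM. Igf1 and Igfbp4 thus shared the macrophage label and the frontal cortex CPC label. They parted in smooth muscle, where Igf1 gave 0 to 2 UMIs per library.

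Igfbp5, a binding protein that attaches to extracellular matrix and is abundant in bone, was highest in the OLG label of frontal cortex, which carried arachnoid barrier markers, at 2602 and 1895 CPM in 27 and 34 cells. In midbrain the OPC label with fibroblast markers read 2503 and 1571 CPM, followed by OLG at 1545 and 1389 CPM and TNC at 524 and 462 CPM. In the midbrain OPC label 792 of 868 and 1059 of 1314 UMIs came from 10 cells. Frontal cortex cells labelled CPC, with olfactory ensheathing markers, read 444 and 879 CPM. Astrocytes, the most numerous source, read 132 and 139 CPM in frontal cortex (-0.07, -0.19 to 0.06) and 104 and 122 CPM in midbrain (-0.23, -0.34 to -0.13). The frontal cortex ratio ranged from -0.49 to 0.35 over 11 alternatives and kept its direction in 8. They carried 34.4% to 43.1% of all Igfbp5 UMIs.

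In 5 of the 10 astrocyte clusters the counting intervals of the genotype ratio left out 0 for both Igfbp2 and Igfbp5. In all 5 Igfbp2 was higher and Igfbp5 lower in the transgenic library. Clusters of a region share the same pair of libraries and are not replicates. In frontal cortex cluster 1 Igfbp5 read 85.7 and 131 CPM (-0.62, -0.80 to -0.43) and in midbrain cluster 4 187 and 293 CPM (-0.65, -1.06 to -0.26). Both are description within clusters that these genes helped to build. In frontal cortex cluster 4, where the summed Igfbp2 level was lower, Igfbp5 read 185 and 151 CPM (0.29, -0.11 to 0.70). In cluster 22 both genes had ratios below 0, -2.08 for Igfbp2 and -0.32 for Igfbp5, so the opposition did not hold in every cluster. In smooth muscle of frontal cortex Igfbp5 read 27.7 against 74.7 CPM (-1.43, -2.04 to -0.87). The libraries other than the frontal cortex transgenic one, midbrain transgenic among them, lay within 73.0 to 74.7 CPM. In frontal cortex 10 cells held 25 of 29 transgenic and 123 of 248 wildtype UMIs. Thus 2 of 5 members compared were called in frontal cortex smooth muscle, Igfbp2 higher and Igfbp5 lower, where 10.1% of genes were, and 1 of 5 in midbrain, where 4.4% were.

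Igfbp7, the matrix protein of vessels, was higher in transgenic than in wildtype endothelium in both regions. Endothelial cells read 2916 CPM in the transgenic and 1910.0 CPM in the wildtype library of frontal cortex, and 2964 and 1783 CPM in midbrain. Both transgenic libraries were above both wildtype libraries, although no cell names its mouse, so the regions cannot be taken as independent. The ratios were 0.61 (0.59 to 0.63) and 0.73 (0.71 to 0.76). It was the 1 of 3 members called in each region, where 2.12% of 6788 genes in frontal cortex and 1.87% of 6785 genes in midbrain were called in either direction. The other members compared, Igf1r and Igfbp3, were not called. The median endothelial cell read 2509 against 1683 CPM in frontal cortex and 2377 against 1559 CPM in midbrain, and the lower and upper quartiles moved the same way (1723 and 3654 against 1177 and 2430.0 CPM in frontal cortex).

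**Figure D4:**
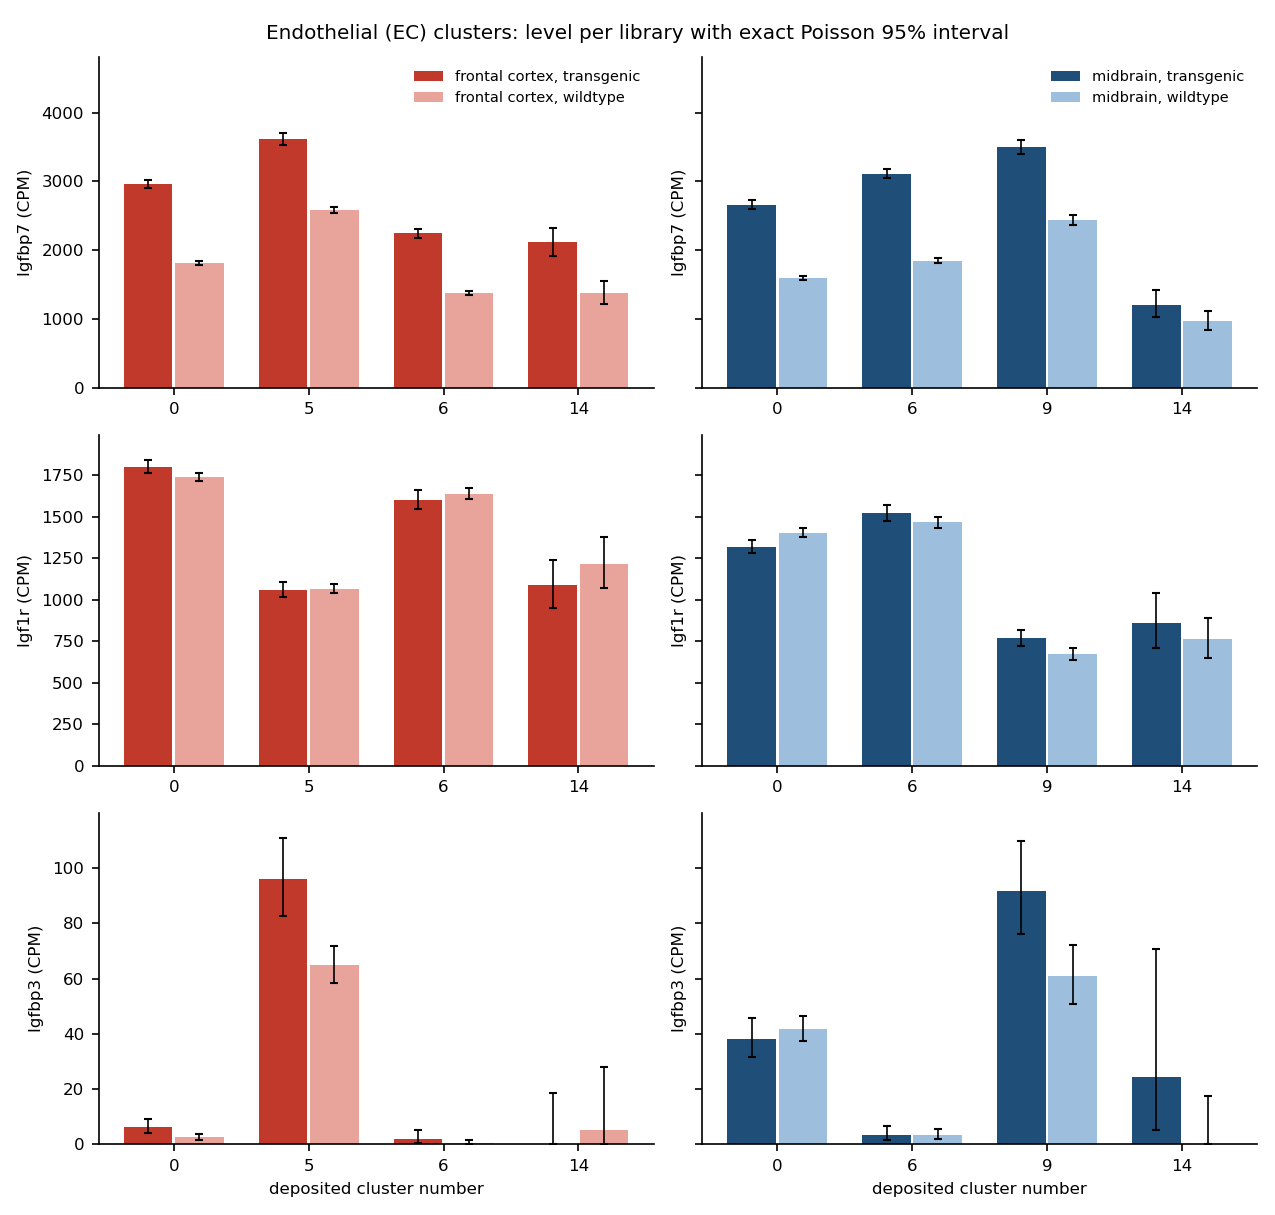
Igfbp7, Igf1r and Igfbp3 in the deposited endothelial clusters (CPM per library, bars; whiskers are exact Poisson 95% intervals). Igfbp7 is higher in the transgenic library in 8 of 8 clusters, Igf1r bars of both genotypes are close, and Igfbp3 stands out in frontal cortex cluster 5 and midbrain cluster 9.

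The Igfbp7 difference ran through all endothelial clusters. In frontal cortex clusters 0, 5, 6 and 14 the transgenic library read 2963, 3614, 2243 and 2115 CPM, against 1816, 2583, 1380.0 and 1383 CPM in the wildtype. The ratios were 0.71, 0.48, 0.70 and 0.61. In midbrain clusters 0, 6, 9 and 14 they were 0.74, 0.75, 0.52 and 0.32. The lowest ratio was in the arterial-marker cluster in frontal cortex, and in midbrain in cluster 14, whose cells had medians of 1287 and 1362 UMIs. Cluster 0 held 52.7% and 55.1% of frontal cortex endothelial cells and cluster 14 held 8.25% and 3.17%, transgenic first.

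Pericytes and smooth muscle read more Igfbp7 than endothelium, so their RNA in endothelial cells was measured beside it. The 8 pericyte markers summed to 793 and 737 CPM in frontal cortex endothelium, transgenic first, and 795 and 894 CPM in midbrain endothelium, and the 8 smooth muscle markers to 108 and 120 CPM and to 125 and 156 CPM. The part of this RNA in the result was not tested. In endothelial cells with no UMI of either list the ratio was 0.72 in frontal cortex and 0.59 in midbrain. These were 174 of 861 transgenic and 398 of 2240 wildtype cells in frontal cortex and 192 of 792 and 368 of 1860 in midbrain, and they were shallower, with a median of 6071 UMIs against 8530 in all transgenic endothelial cells of frontal cortex. Pericytes themselves read 4220.0 and 3526 CPM in frontal cortex (0.26, 0.19 to 0.33) and 3998 and 3679 CPM in midbrain (0.12, 0.05 to 0.19). Smooth muscle read 4423 and 3558 CPM (0.31, 0.26 to 0.36) and 3537 and 3528 CPM (0.00, -0.04 to 0.04). None of these passed 1.5 times. The endothelial call was lost in frontal cortex with cells thinned to 3000 UMIs (0.58, just short of 1.5 times) and in midbrain among cells with under 4 UMIs of other types' markers (0.57, choroid plexus not counted). The latter were 152 of 792 transgenic and 345 of 1860 wildtype cells, with medians of 4370 and 4297 UMIs.

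**Figure D5:**
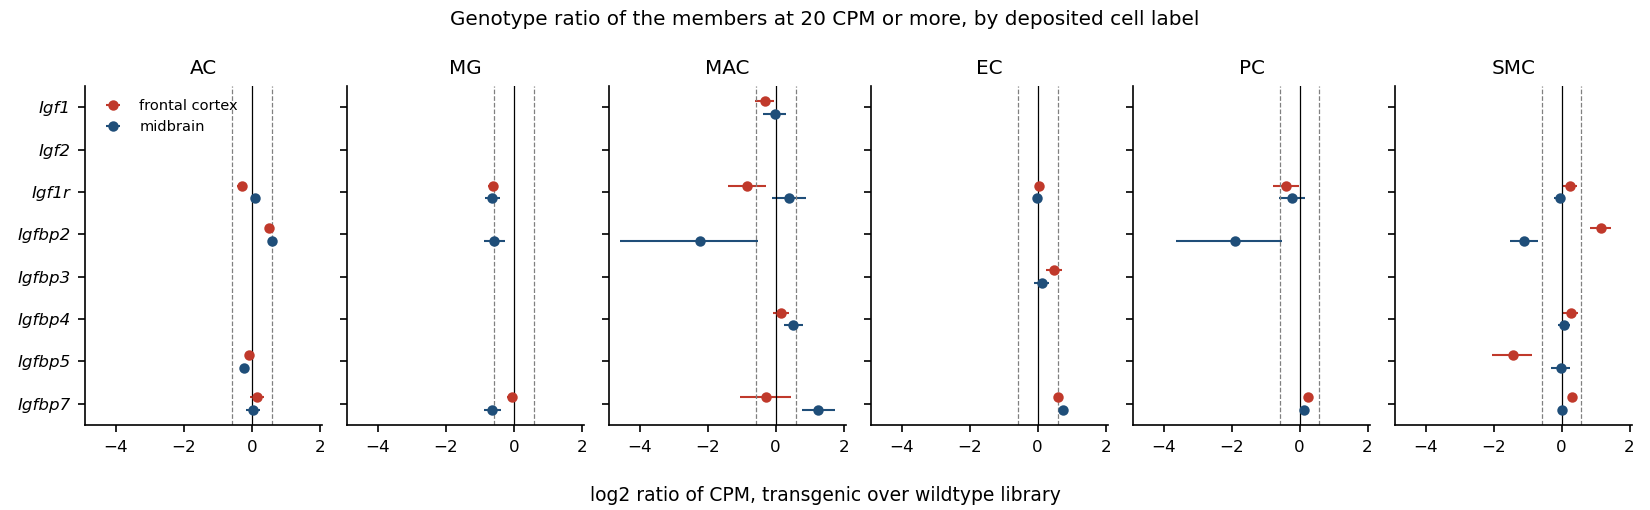
Log2 ratio of CPM, transgenic over wildtype library, for the IGF genes compared in 6 deposited labels of frontal cortex and midbrain; bars are exact 95% intervals for counting error, dashed lines mark 1.5 times. Endothelial Igfbp7 lies past the line in both regions (0.61 and 0.73), Igf1r in microglia lies past it on the other side (-0.62 in both), and smooth muscle Igfbp2 lies on opposite sides (1.15 and -1.10).

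Beyond the vessel wall, Igfbp7 read 874 and 1024 CPM in the midbrain OPC label, with fibroblast markers, and far less in astrocytes and immune cells. Astrocytes read 56.0 and 50.4 CPM in frontal cortex and 28.9 and 27.9 CPM in midbrain, with genotype ratios of 0.15 (-0.05 to 0.35) and 0.05 (-0.16 to 0.26). The frontal cortex ratio ranged from 0.13 to 0.89 over 11 alternatives and passed 1.5 times in 1 of them, in cells under 5% mitochondrial UMIs. Between regions it was lower in midbrain, with log2 ratios of -0.85 (-1.04 to -0.66) in wildtype and -0.95 (-1.17 to -0.74) in transgenic astrocytes, the 1 member of 4 called in each. Of all genes compared, 13.6% of 7193 and 17.1% of 7323 were called between the regions, and the wildtype and transgenic regional comparisons reuse the libraries of the genotype comparisons. The 10 endothelial markers summed to 589 CPM in wildtype frontal cortex astrocytes and 185 CPM in midbrain ones, and to 241 and 133 CPM in the transgenic libraries. Among astrocytes with under 4 UMIs of other types' markers (choroid plexus not counted) the wildtype ratio was 0.0032 and the transgenic one -0.25. In wildtype these were 162 of 1067 frontal cortex and 508 of 2644 midbrain cells. Their medians were 2072 and 2532 UMIs, against 7983 and 6320 in all wildtype astrocytes. The part of depth in these values was not tested.

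Microglia read 80.4 and 83.8 CPM of Igfbp7 in frontal cortex (-0.06) and 32.2 and 50 CPM in midbrain (-0.63, -0.88 to -0.39). In midbrain 10 cells held 53 of 209 transgenic and 188 of 383 wildtype UMIs, while 19.5% of transgenic and 14.8% of wildtype microglia held a UMI (8.61% and 7.54% after thinning), so the lower summed level came with a higher share of cells. Their endothelial markers summed to 177 and 421 CPM there, and the part of these in the result was not tested. For every 1000 endothelial marker UMIs they held 152 and 92.9 Igfbp7 UMIs in frontal cortex, above the 119.9 and 73.7 of endothelial cells. In midbrain they held 182 and 119 and endothelial cells 129 and 73.5, so per marker UMI the transgenic library was the higher in both cell types and regions. Midbrain macrophages read 140.1 and 58.6 CPM (1.26, 0.76 to 1.76), where their endothelial markers were 940.0 and 583 CPM and 70 of 76 transgenic UMIs came from 10 cells. There 2 of 5 members were called, Igfbp7 higher and Igfbp2 lower, and 23.1% of genes were. In frontal cortex macrophages Igf1r read 59.6 and 107 CPM (-0.84), the 1 call of 4 members compared, where 20.3% of genes were called and endothelial markers were 133 and 832 CPM. The frontal cortex imNeur label read 78.1 and 27.5 CPM of Igfbp7 (1.51, 0.75 to 2.31) with 39 of 47 transgenic UMIs in 10 cells, 1 of 4 members compared, where 19.9% of genes were called.

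In frontal cortex mNeur cells, with neuron markers, Igfbp2 read 11 against 35.8 CPM (-1.70), 1 of 4 members compared, where 24.9% of genes were called. The counts behind it were 8 and 21 UMIs, and 1 wildtype cell held 16 of the 21. In pericytes 0 of 2 members were called in frontal cortex, where 16.9% of genes were, and 1 of 3 in midbrain, Igfbp2, where 13.8% were. In midbrain choroid plexus cells 0 of 4 members were called, where 5.27% of genes were. In the other members and labels compared, the genotype ratio stayed within 1.5 times.

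The rest of the IGF pathway was read from a list of 44 genes, of which 37 had counts in frontal cortex and 39 in midbrain. In frontal cortex astrocytes 2 of 21 genes compared were higher in the transgenic library and 0 lower, where 6.56% of all genes were called in either direction. Adamts1, a metalloprotease that cleaves matrix, read 141 and 50.1 CPM (1.49), and Irs2, the substrate that couples the receptor to PI3K, read 31.4 and 15.4 CPM (1.03). In midbrain astrocytes 1 of 20 was higher, where 1.4% of all genes were called, Adamts1 at 30.0 and 19.1 CPM (0.65), while Irs2 read 38 and 26.4 CPM (0.53). In endothelium Adamts1 was lower in frontal cortex, at 253 and 442 CPM (-0.81), the 1 call among 21 genes, and 0 of 20 genes were called in midbrain, beside 2.12% and 1.87% of all genes. The list's median ratio was -0.01 and 0.07 in astrocytes and -0.02 and -0.08 in endothelium, against 0.01 and -0.00 and 0.01 and -0.01 over all genes compared.

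Endothelium also held the related receptor gene Insr, at 268 and 229 CPM in frontal cortex and 224 and 216 CPM in midbrain, and the adaptor Grb14, which inhibits the insulin receptor, at 162 and 207 CPM and at 168 and 221 CPM. Both were highest there among labels of at least 50 cells per library. Among the same labels Igf2r, which clears IGF2, was highest in pericytes, at 133 and 103 CPM in frontal cortex and 155.0 and 118 CPM in midbrain. Htra1, a serine protease that cleaves binding proteins, was highest in astrocytes, at 2067 and 2038 CPM and at 1749 and 1622 CPM. Ins2, an insulin gene, was read in midbrain choroid plexus at 26.7 and 45.5 CPM. Igfbpl1, an IGF binding protein-like gene, stood at 1066 and 1300.0 CPM in frontal cortex imNeur cells. These 6 genes were chosen from the list after their values were seen.

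The genes whose profile was most like each member were sought over 24 profiles (6 labels in 4 libraries, which share depth and dissociation). This was done among 10723 genes, by Pearson's r of log2(CPM + 1), as a description with no p. The labels were AC, MG, MAC, EC, PC and SMC, those with at least 50 cells in every library. Labels in which some members were highest, such as OPC, OLG and CPC, were left out, so the likeness holds within these 6 only. Igf1 was followed most closely by F630028O10Rik, Ms4a7 and Aoah (r of 0.98 for each), Igfbp4 by Cbr2 (0.96), Adam33 (0.95) and Bmp2 (0.94), and Igf1r by Fas (0.96) and Arl4a (0.95). Igfbp2 was nearest to Thbs3 (0.95), Pcdh7 and Timp4 (0.94 for both). Igfbp3 was nearest to Socs2 (0.92), Wfdc1 (0.91) and Nampt (0.90). Igfbp5 was nearest to Ppp1r3c, Pygb (0.97 for both) and Slc4a8 (0.96), and Igfbp7 to Ebf1, Foxc1 (0.99 for both) and A4galt (0.98). Ms4a7 and Cbr2 are macrophage markers of the lists used here. Igf2 did not reach 20 CPM in any of these 6 labels and was not compared.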

How the data were processed

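Single-cell 3′ libraries of dissociated frontal cortex and midbrain were analysed, 1 library per region and genotype. The deposited UMI counts per gene and cell, the cell labels, the clusters and the mitochondrial percentage per cell are the authors'. Per the submitters' processing notes, Cell Ranger 3.0.0, Seurat 3.1.5 and mm10 were used, and which tool made which value is not given in the sources used here. Doublet treatment is not given either, and no doublet caller was run. All deposited cells were kept.

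Counts were summed per label or cluster and library with Python 3.11.15, numpy 2.4.6, scipy 1.17.1 and pandas 2.3.3, and plotted with matplotlib 3.10.9. Levels carry exact Poisson and ratios exact Clopper-Pearson intervals of 95%, which cover counting error only. Labels of at least 50 cells in both libraries were compared, over all genes. edgeR 4.0.16 and DESeq2 1.42.0 in R 4.3.3 gave the alternative scaling factors alone. The ratio code was tested on simulated data. The genes named by rule, other than the members, were pathway genes called between genotypes in astrocytes and the 3 genes most like each member, of which 1 is not reported here. The members and lists were chosen with earlier results of these data known.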

Additional observations from a re-analysis of the deposited data

Results flagged for a closer look

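Igfbp2 in smooth muscle cells drew attention because its genotype ratio pointed in opposite directions in the regions: it was 1.15 in frontal cortex and -1.10 in midbrain (log2, transgenic over wildtype library). The difference between the regions was not tested, since each group was 1 library. Most Igfbp2 UMIs came from 10 cells in each of the 4 libraries.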

How the results depend on the processing

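Ratios of Igf1r, Igfbp2, Igfbp5 and Igfbp7 in astrocytes and the genotype ratio of Igfbp7 in endothelium were recomputed under other scalings, cell filters and weightings. The calls in other labels and the Igfbp3 ratios were not. Igfbp7 in endothelium kept its direction under all alternatives, from 0.58 to 0.91 over 12 in frontal cortex, 11 of them past 1.5 times, and from 0.57 to 0.75 over 11 in midbrain, 10 past it. These alternatives were chosen after seeing the data. Its frontal cortex ratio was 0.58 with cells thinned to 3000 UMIs, 0.91 in cells with under 4 UMIs of other types' markers, 0.90 with choroid plexus not counted, and 0.72 in cells with no pericyte or smooth muscle marker UMI. The 0.91 rests on 53 of 861 transgenic and 276 of 2240 wildtype cells, with medians of 3754 and 5529 UMIs. In midbrain it was 0.67 as a mean of per-cell CPM, 0.69 thinned, 0.57 in cells with under 4 such UMIs (choroid plexus not counted), 0.62 with clusters weighted alike and 0.59 in cells with no pericyte or smooth muscle marker UMI. Igfbp2 in astrocytes ranged from -0.16 (clusters weighted alike) to 0.65 in frontal cortex, and from 0.44 to 0.79 in midbrain. In frontal cortex astrocytes Igf1r ranged from -0.30 to 0.38 and Igfbp5 from -0.49 to 0.35, changing direction in 4 and 3 of 11 alternatives, and Igfbp7 from 0.13 to 0.89.

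The number of members called in frontal cortex astrocytes rose from 0 to 1 with cells thinned, with either mitochondrial limit (under 10% or under 5%) and with no filter on low genes. In midbrain it went from 1 to 0 as a mean of per-cell CPM, thinned, without the cell richest in the gene, with clusters weighted alike and at 2 times. Between regions in wildtype astrocytes it went from 1 to 2 under 5% mitochondrial UMIs, to 2 in cells with under 4 UMIs of other types' markers (choroid plexus not counted, chosen after seeing the data), to 5 with no filter and to 0 at 2 times. In transgenic astrocytes it went from 1 to 2 with cells thinned, under 5% mitochondrial UMIs and with no filter, and to 0 at 2 times. The Igfbp7 regional ratio in wildtype astrocytes was 0.0032, against -0.85, in cells with under 4 such UMIs. Igfbp7 was therefore not among the 2 members called there. Over 9 alternatives its ratio ranged from -0.95 to 0.0032 and passed the fold needed for a call in 7. The Igfbp2 ratio was -0.57, ranged from -0.97 to -0.50 and passed it in 3. That of Igf1r was 0.11, ranged from 0.08 to 0.74 and passed it in 1. In transgenic astrocytes Igfbp7 passed it in 8 of 9 alternatives and Igfbp2 in 3. The limit of under 4 such UMIs kept 162 of 1067 frontal cortex and 508 of 2644 midbrain cells, with lower median UMIs than all wildtype astrocytes. The cause of these shifts was not tested. Of the values under alternatives, 147 stayed close to the reported one, 78 moved and 1 changed sign after a call.

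No paired analysis was possible because each group was 1 library. With choroid plexus markers counted, 11 and 4 midbrain astrocytes and 1 and 5 midbrain endothelial cells stayed under 4 UMIs of other types' markers, too few for a value. With 1 library per group, differences between mice, dissociations or library preparations cannot be told apart from genotype or region. Levels resting on 10 cells, and labels of under 50 cells, limit what the sparse members can show.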
